A study of Mus musculus with 9 samples.

Results

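miR-103-3p and miR-107-3p are guide strands that carry the same seed, the stretch of bases 2 to 8 by which a miRNA finds its targets. They were followed here through brown (BAT), subcutaneous (SAT) and visceral (VAT) adipose tissue of obese mice. Of the 1251 miRNAs in the small RNA-Seq table, 5 have a name that starts with miR-103 or miR-107, and these are the members. Both 3p strands passed the filter on low values, while the 5p strands miR-103-1-5p, miR-103-2-5p and miR-107-5p stood at the lowest value of the table in all 9 libraries.

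All 3 groups came from male C57BL/6J mice that entered the study at 5 to 6 weeks of age. Every mouse ate the high fat diet, with 45% of energy from fat, 20% from protein and 35% from carbohydrate, for 11 weeks and was fasted for 4 hours before death, so that no library shows the effect of the diet. BAT was the interscapular, SAT the inguinal and VAT the epididymal fat, with 3 libraries each. They carry the numbers 12, 15, 20 (BAT), 14, 19, 20 (SAT) and 14, 17, 20 (VAT). WAT stands for SAT and VAT together. Total RNA came from whole pieces of fat, in which fewer cells of a type and less of a miRNA per cell cannot be told apart.

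miR-103 and miR-107 are vertebrate miRNAs encoded in introns of pantothenate kinase genes, whose enzymes start the synthesis of coenzyme A. Experiments in obese mice by others tied them to insulin sensitivity: silencing them improved glucose control, and the caveolin-1 transcript, which encodes a protein of the caveolae that hold the insulin receptor in fat cells, is among their known targets. They also target Dicer, the enzyme that cuts miRNAs from their precursors. miR-103 is in addition a common reference miRNA in qPCR studies.

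The mature sequences, from RefSeq on GRCm38.p6, are shown with the seed in capitals because both strands share it.
miR-103-3p: aGCAGCAUuguacagggcuauga
miR-107-3p: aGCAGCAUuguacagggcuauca
Among 1679 mature mouse miRNA names in this RefSeq table, only these 2 carry that seed. Both strands are 23 bases long and differ by the single substitution G22C, counted from 1 at the 5′ end of miR-103-3p. Their first 21 bases are therefore identical, and a read that ends there fits both. The authors shared reads that map to several places in proportion, and the part of such reads in the values was not tested.

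The precursors are shown with the 3p strand in capitals, since miR-103-3p can come from either of 2 loci and miR-107-3p from 1.
Mir103-1: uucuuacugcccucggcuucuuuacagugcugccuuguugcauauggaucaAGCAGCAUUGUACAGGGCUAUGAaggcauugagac
Mir103-2: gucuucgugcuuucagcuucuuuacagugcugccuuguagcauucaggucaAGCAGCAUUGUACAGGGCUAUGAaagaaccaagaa
Mir107: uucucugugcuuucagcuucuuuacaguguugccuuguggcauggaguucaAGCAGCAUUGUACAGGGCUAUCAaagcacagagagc
On GRCm38 with GENCODE M21, Mir103-1 lies on the plus strand at chr11:35782396-35782481 in intron 5 of Pank3. Mir103-2 lies on the plus strand at chr2:131288052-131288137 in intron 5 of Pank2. Mir107 lies on the minus strand at chr19:34820687-34820773 in intron 5 of Pank1. All 3 have the strand of their host gene, and none touches an annotated exon of it. The table gives miR-103-3p as 1 row, so the shares of Mir103-1 and Mir103-2 cannot be told apart.

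The deposited values are on a log2 scale, and the lowest, 3.32, is the log2 of 10. For 80 of the top 100 ranks the values at a rank spanned under 0.05 over the 9 libraries, as quantile normalization would leave them, so that a member's value largely states its rank. No read counts are in the table, and the depth is unknown. Precision was therefore judged by how far the 3 libraries of a depot lay apart. The study treats them as biological replicates, and they carry different numbers within a depot. On the log2 scale the summed level of 5 brown fat miRNAs ranged from 17.36 to 18.84 in BAT. It ranged from 15.17 to 15.24 in SAT and from 15.67 to 16.27 in VAT. This sum was mostly miR-378a-3p (17.20 to 18.67 in BAT), and miR-365-3p overlapped between BAT and SAT. The sum of 5 white fat miRNAs was 14.64 to 16.09 in BAT, 16.93 to 17.61 in SAT and 17.56 to 18.41 in VAT. Of these, miR-196a-5p and miR-335-5p had the lowest value throughout BAT, and miR-196b-5p reached 7.55 there. In BAT miR-10a-5p and miR-10b-5p averaged 14.52 and 14.39. The summed level of 4 skeletal muscle miRNAs ran from 10.14 in BAT 12 to 17.21 in BAT 15 and 18.68 in BAT 20. In VAT 20 it reached 17.21. This sum was mostly miR-133a-3p (10.10 to 18.67 in BAT), while in BAT miR-133b-3p reached 10.82, miR-206-3p 8.23 and miR-1a-3p 7.38. The summed level of 6 epithelial miRNAs was highest in SAT 14 (14.35), where it was mostly miR-205-5p (up to 14.31 in SAT). All 6 were at the lowest value throughout BAT, at a sum of 5.91 against 6.06 or more in white fat. Other cell type miRNAs parted BAT from every white fat library. The summed endothelial level was 11.53 to 12.23 in BAT and 13.28 to 13.64 in white fat. The red cell level was 17.68 in BAT and 14.86 to 15.87 in white fat, and was mostly miR-486-5p. The red cell miRNA miR-451a went the other way, at means of 9.26 in BAT, 10.09 in SAT and 11.46 in VAT. miR-144-3p, also of that set, was at the lowest value in every library. The liver miRNA miR-122-5p was 6.59 to 10.08 in BAT and 3.32 to 4.14 in white fat. The sum of 6 leukocyte miRNAs, highest in SAT 20 (16.79), was mostly miR-150-5p and overlapped between the depots. Among single leukocyte miRNAs, miR-223-3p was at the lowest value throughout BAT against means of 9.15 in SAT and 10.08 in VAT. The means in BAT, SAT and VAT were 5.88, 9.20 and 9.90 for miR-142-5p, and 6.40, 8.80 and 9.59 for miR-146a-5p. For miR-150-5p they were 14.52, 14.71 and 13.12. miR-142-3p was at the lowest value throughout BAT, with means of 4.71 in SAT and 4.48 in VAT. miR-155-5p was at the lowest value in every library. Apart from the muscle and leukocyte sums, most of these levels differed between BAT and white fat, as the members did. The part of any of them in the results was not tested.

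miR-103-3p was more abundant in both white depots than in BAT. Its log2 value was 12.07 in BAT 12, 12.09 in BAT 15 and 11.34 in BAT 20. It was 14.05 in each of the 3 SAT libraries, and 13.51, 13.56 and 13.56 in VAT 14, VAT 17 and VAT 20. The 3 depots did not overlap, with SAT highest, VAT next and BAT lowest. Such a separation was common, at 72.0% of the tested miRNAs in VAT/BAT, 52.5% in SAT/BAT and 39.4% in VAT/SAT. The equal values in SAT reflect an equal rank: miR-103-3p was the 26th most abundant miRNA in each SAT library, the 33rd or 34th in VAT, and the 51st, 52nd and 65th in BAT.

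miR-103-3p averaged 11.83 ± 0.43 in BAT, 14.05 ± 0.00 in SAT and 13.55 ± 0.03 in VAT (SD, n = 3 each). VAT exceeded BAT by 1.71 on the log2 scale (standard error 0.28), or 3.28-fold, with a Benjamini-Hochberg adjusted p of 0.00239 by limma over 343 miRNAs. SAT exceeded BAT by 2.22 (standard error 0.24), or 4.65-fold, with an adjusted p of 0.00259 by limma. Of all tested miRNAs, 66.2% passed an adjusted p of 0.05 in VAT/BAT (39.4% higher and 26.8% lower in VAT) and 40.5% in SAT/BAT (22.4% higher and 18.1% lower in SAT), so that passing does not set a miRNA apart. By the size of its change, miR-103-3p ranked 159 of 343 in VAT/BAT and 102 of 343 in SAT/BAT.

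miR-107-3p went the other way. Its log2 value was 11.21 in BAT 12, 11.29 in BAT 15 and 9.85 in BAT 20. The SAT libraries 14, 19 and 20 had 9.50, 9.23 and 9.21, and the VAT libraries 14, 17 and 20 had 9.27, 9.74 and 9.49. Every BAT library was above every white fat library, as 48.7% of the tested miRNAs showed in one direction or the other, but BAT 20 lay only just above VAT 17, while BAT 12 and BAT 15 stood well apart. By rank, miR-107-3p was 66th and 67th in BAT 15 and BAT 12, 94th in BAT 20, and between 96th and 109th in the white fat libraries.

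The means of miR-107-3p were 10.78 ± 0.81 in BAT, 9.31 ± 0.16 in SAT and 9.50 ± 0.23 in VAT (SD, n = 3 each). With all 9 libraries in the fit, WAT minus BAT was -1.38 on the log2 scale (95% interval -2.15 to -0.60), a 2.60-fold lower level in WAT, with an adjusted p of 0.00716 by limma. For miR-103-3p the same fit gave 1.97 (95% interval 1.47 to 2.46; adjusted p = 9.5e-05 by limma). In WAT/BAT 64.1% of the tested miRNAs passed, 37.3% higher and 26.8% lower in WAT.

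Between single depots the fall of miR-107-3p was less firm. VAT minus BAT was -1.28 (standard error 0.44; adjusted p = 0.0397 by limma), and SAT minus BAT was -1.47 (standard error 0.44; adjusted p = 0.0534 by limma), which missed the threshold. Without BAT 20 these became -1.75 and -1.94, with adjusted p of 0.00189 and 0.0017 by limma. Leaving out any other library of a comparison gave a limma adjusted p from 0.0812 to 0.125 for VAT/BAT and from 0.117 to 0.146 for SAT/BAT.

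BAT 20, the BAT library with the lowest level of both members, had the highest level of muscle miRNAs. It was also the lowest of the 3 in brown fat miRNAs (17.36 against 18.79 and 18.84), white fat miRNAs (14.64 against 15.67 and 16.09) and endothelial miRNAs (11.53 against 12.17 and 12.23), and the part of these in its values was not tested. BAT 12 and BAT 15, whose summed muscle levels were 10.14 and 17.21, differed by less than 0.1 in each member. VAT 20, at a muscle level of 17.21, and VAT 14, at 9.90, had miR-103-3p at 13.56 and 13.51 and miR-107-3p at 9.49 and 9.27. The part of any of these levels in the values of the members was not tested.

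**Figure D1:**
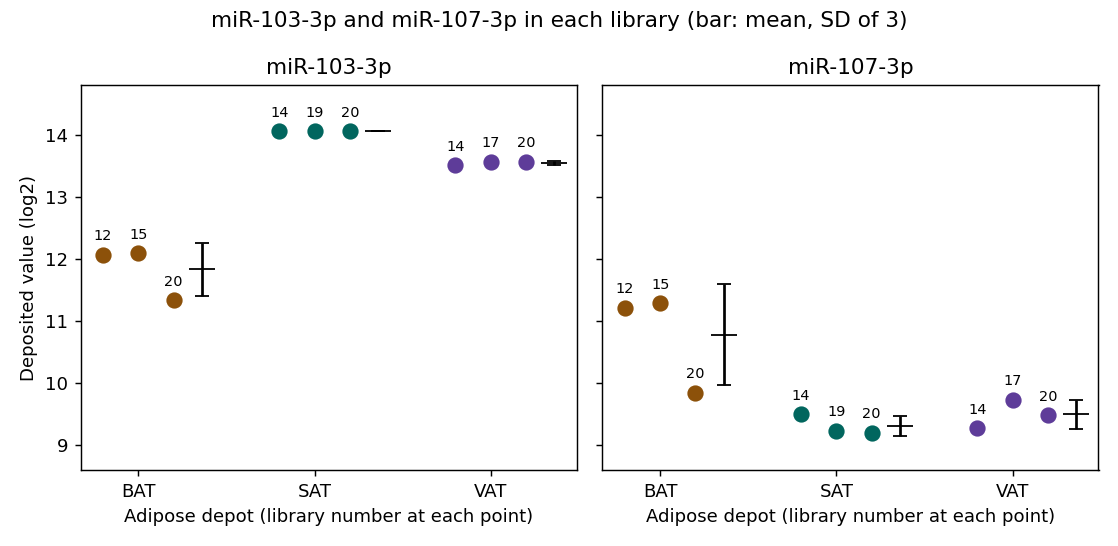
Deposited log2 values of miR-103-3p (left) and miR-107-3p (right) in each of the 9 libraries, by depot, with the library number above each point and the mean and SD of 3 libraries to its right. miR-103-3p is lowest in BAT (11.34 to 12.09) and highest in SAT (14.05), while miR-107-3p is highest in BAT (9.85 to 11.29).

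Between the white depots, miR-103-3p was 1.42-fold lower in VAT (VAT minus SAT -0.51 on the log2 scale, standard error 0.07; adjusted p = 0.0235 by limma). In this comparison 16.0% of the tested miRNAs passed, 8.45% higher and 7.58% lower in VAT. The small standard error rests on the near-equal ranks within each depot. When BAT was added to the fit, limma's adjusted p for the same difference was 0.231. miR-107-3p overlapped between VAT and SAT, at VAT minus SAT 0.18 (95% interval -0.24 to 0.61; adjusted p = 0.494 by limma), an interval that still holds a difference of 0.61. Across the 3 depots limma's F test had adjusted p values of 0.000272 for miR-103-3p and 0.0192 for miR-107-3p, where 65.9% of all tested miRNAs passed.

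**Figure D2:**
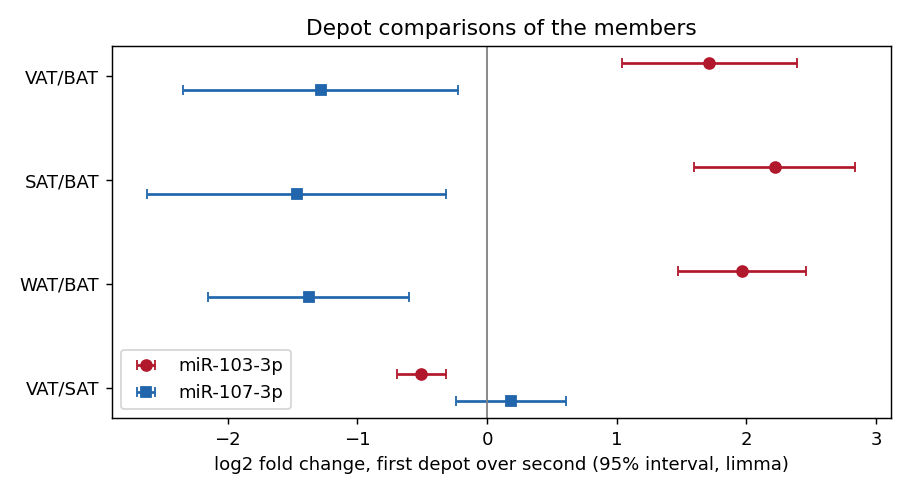
log2 fold change of miR-103-3p (circles) and miR-107-3p (squares) in 4 depot comparisons, with 95% intervals from limma. The comparisons with BAT lie on opposite sides of 0 (1.71 to 2.22 for miR-103-3p and -1.47 to -1.28 for miR-107-3p), and the VAT/SAT interval of miR-107-3p spans 0.

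Since both strands were measured in the same library, their difference does not depend on a scale factor of that library. The values largely state ranks, however, and a mapping of ranks to values does not cancel. The differences, folds and shares given here are thus those of the deposited values and need not be those of the reads. miR-103-3p exceeded miR-107-3p by 0.85, 0.81 and 1.49 on the log2 scale in BAT 12, BAT 15 and BAT 20. In SAT 14, SAT 19 and SAT 20 it exceeded it by 4.55, 4.82 and 4.84, and in VAT 14, VAT 17 and VAT 20 by 4.23, 3.83 and 4.08. By the mean of the log2 differences, miR-103-3p was thus 2.07-fold above miR-107-3p in BAT, 26.7-fold in SAT and 16.5-fold in VAT, and the 3 depots did not overlap.

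By depot the mean difference was smallest in BAT (1.05 ± 0.38), then VAT (4.05 ± 0.20), then SAT (4.74 ± 0.16; SD, n = 3 each). It varied between the depots with an exact permutation p of 0.00357 over 1680 assignments of the libraries, the smallest this test allows (0.0143 after Benjamini-Hochberg adjustment over 8 tests). It was larger in SAT than in BAT by 3.69, larger in VAT than in BAT by 3.00 and smaller in VAT than in SAT by 0.69 (log2 difference -0.69). For each pair of depots the two-sided exact permutation p was 0.1, below which 3 libraries against 3 cannot go.

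On the linear scale, miR-107-3p made up 35.6%, 36.4% and 26.3% of the sum of both strands in BAT 12, BAT 15 and BAT 20. Its share was only 3.36% to 4.10% across the SAT libraries and 5.05% to 6.58% across those of VAT. The sum itself, which is the level of this seed, followed miR-103-3p. Its log2 value was 12.70, 12.75 and 11.78 in the BAT libraries, 14.10 to 14.11 in SAT and 13.58 to 13.66 in VAT. The sum was 3.24-fold higher in SAT and 2.33-fold higher in VAT than in BAT (exact permutation p = 0.1 for each, the smallest possible, and 0.00357 across the 3 depots).

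**Figure D3:**
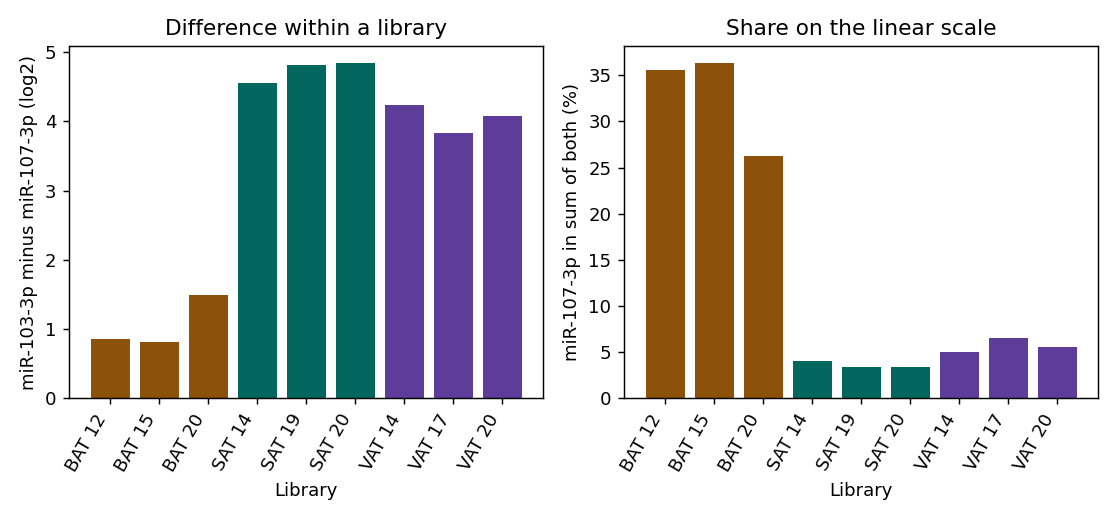
Left, miR-103-3p minus miR-107-3p on the log2 scale in each library, and right, miR-107-3p as a percent of the linear sum of both strands. The difference is 0.81 to 1.49 in BAT against 3.83 to 4.84 in the 6 white fat libraries, and the share falls from 26.3% or more in BAT to 6.58% or less.

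Other miRNAs with a common seed gave a measure of how usual such opposite changes were. RefSeq held a mature sequence of the same name for 288 of the 343 tested miRNAs, and these formed 105 pairs with equal bases 2 to 8. Both miRNAs of a pair passed in WAT/BAT for 58 pairs, of which 7 had opposite directions. The changes of miR-103-3p and miR-107-3p lay 3.34 apart on the log2 scale, and 5 of the 105 pairs, this one included, lay as far apart. The median pair lay 0.94 apart. Many of the pairs came from the let-7 family and shared miRNAs with each other, so the pairs are not separate cases. A few had equal values for both miRNAs, such as miR-199a-3p and miR-199b-3p. These counts are given as a description. Of 12 such pairs of equal length that differ by 1 base, miR-103-3p and miR-107-3p were the 1 pair that passed in opposite directions.

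The seed of miR-103 and miR-107 overlaps that of a wider family, which shares the letters AGCAGC shifted by a base. The sequences are shown with those letters in capitals, to make the shift visible.
miR-103-3p: AGCAGCauuguacagggcuauga
miR-15a-5p: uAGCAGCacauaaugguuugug
miR-15b-5p: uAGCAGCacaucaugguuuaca
miR-16-5p: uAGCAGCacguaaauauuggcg
miR-195a-5p: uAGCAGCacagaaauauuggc
miR-497a-5p: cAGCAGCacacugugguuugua
miR-322-5p: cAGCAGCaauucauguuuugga
miR-503-5p: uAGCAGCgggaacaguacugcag
The miR-15 and miR-16 miRNAs restrain the cell cycle, and miR-322 and miR-503 come from a cluster on the X chromosome. miR-497a-5p stands in the table as miR-497-5p. miR-503-5p was at the lowest value in every library, and the other 6 were tested.

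Of these 6, 5 rose in VAT/BAT and none fell, where 39.4% of all tested miRNAs rose, and their median log2 fold change was 2.15 against 0.40 for all tested miRNAs. In SAT/BAT 4 rose and none fell, against 22.4% of all, with a median of 1.73 against 0.26. miR-15b-5p missed the threshold in both comparisons, and miR-16-5p in SAT/BAT. VAT exceeded BAT by 2.26 for miR-322-5p (adjusted p = 0.0017 by limma) and by 3.23 for miR-195a-5p (adjusted p = 0.00371 by limma). Between the white depots miR-15a-5p was higher in VAT by 1.36 (adjusted p = 0.0235 by limma), a call lost in 6 of 18 alternatives, and the other 5 did not pass. The higher level of miR-15a-5p in SAT than in BAT lost its call in 7 of 17. miR-103-3p thus had the direction of the wider family in the comparisons with BAT, and miR-107-3p the opposite one.

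**Figure D4:**
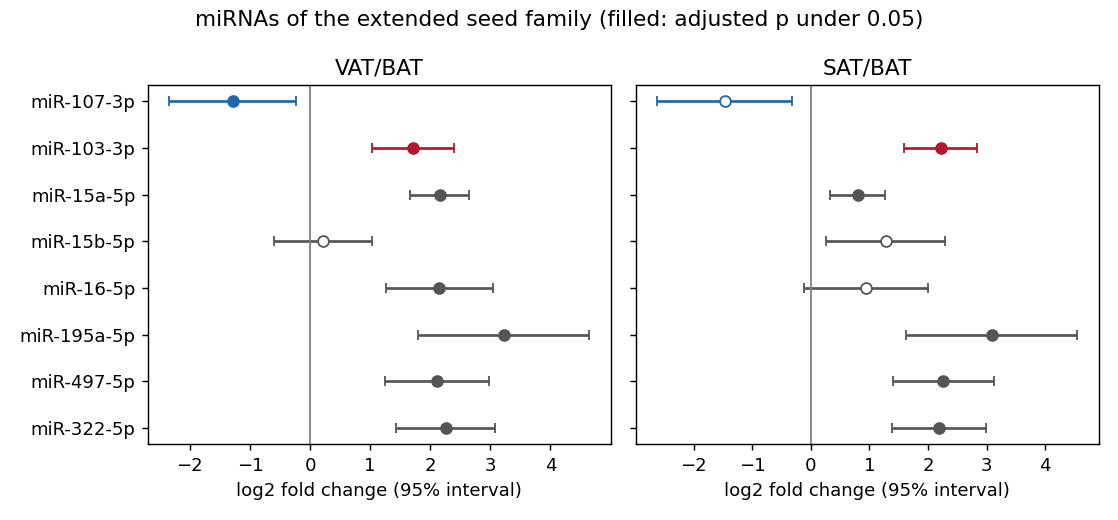
log2 fold change with 95% interval in VAT/BAT (left) and SAT/BAT (right) for miR-107-3p, miR-103-3p and the 6 tested miRNAs of the extended seed family. Filled points had an adjusted p under 0.05, and miR-107-3p (-1.28 and -1.47) is the only one left of 0.

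miR-103 and miR-107 belong to a set of miRNAs that experiments by others tied to insulin action or glucose control. Many of them, such as the let-7 miRNAs, share a seed and nearly all of their bases. From a list of 21 others, 18 were tested, and miR-33-5p, miR-155-5p and miR-802-5p did not pass the filter. In VAT/BAT 12 of the 18 rose and 2 fell, where 39.4% of all tested miRNAs rose and 26.8% fell. In SAT/BAT 11 rose and 1 fell, where 22.4% of all rose and 18.1% fell. Of these 11, let-7d-5p lost its call in 12 of 17 alternatives, miR-34a-5p in 10, let-7i-5p in 8 and let-7g-5p in 5. Their median change, on the log2 scale, came to 1.71 for VAT/BAT and 1.65 for SAT/BAT, beside 0.40 and 0.26 for all tested miRNAs. miR-143-3p, which was reported to impair insulin signaling in liver, was higher than in BAT by 2.43 in VAT and by 2.10 in SAT (adjusted p = 0.000398 and 0.00184 by limma). For let-7a-5p, a let-7 miRNA that represses insulin pathway genes, the values were 1.71 and 2.75 (adjusted p = 0.00218 and 0.000371 by limma). let-7b-5p fell in VAT/BAT (-0.79 on the log2 scale, adjusted p = 0.0469 by limma), a call lost in 10 of 17 alternatives. miR-122-5p, a liver miRNA, fell in both comparisons. It was at the lowest value throughout SAT and at most 4.14 in VAT, and passed the filter only with its BAT libraries. miR-29b-3p and miR-223-3p, counted among the rises, were at the lowest value throughout BAT and passed the filter only through white fat. The direction of these changes was therefore set by the filter. In VAT/SAT 2 of the 18 rose, 3 fell and 13 did not pass, where 8.45% of all tested miRNAs rose and 7.58% fell. Each of these 5 calls was lost in 5 to 11 of 18 alternatives.

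The 5 tested miRNAs whose log2 values most resembled those of each member over the 9 libraries were found by Pearson's r, which is given as a description because the libraries share their depots and their scaling. For miR-103-3p these were miR-93-5p (r = 0.981), miR-708-5p (0.978), miR-148a-5p (0.977), miR-193a-3p (0.971) and miR-99b-3p (0.962). All 5 were lowest in BAT and highest in SAT by their means. miR-93-5p, a miRNA of the miR-106b cluster, averaged 10.44 in BAT, 12.32 in SAT and 12.06 in VAT.

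For miR-107-3p the 5 were miR-378a-3p (r = 0.958), miR-3963 (0.955), miR-667-3p (0.953), miR-1900 (0.940) and miR-5122 (0.932). miR-378a-3p, from an intron of Ppargc1b and abundant in brown fat, averaged 18.18 in BAT, 15.02 in SAT and 15.87 in VAT. The other 4 were low, at the lowest value in 6, 4, 6 and 6 of the 9 libraries in the order given, so that their likeness to miR-107-3p rests mostly on the BAT libraries. Between the members themselves r was -0.721 over the 9 libraries.

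**Figure D5:**
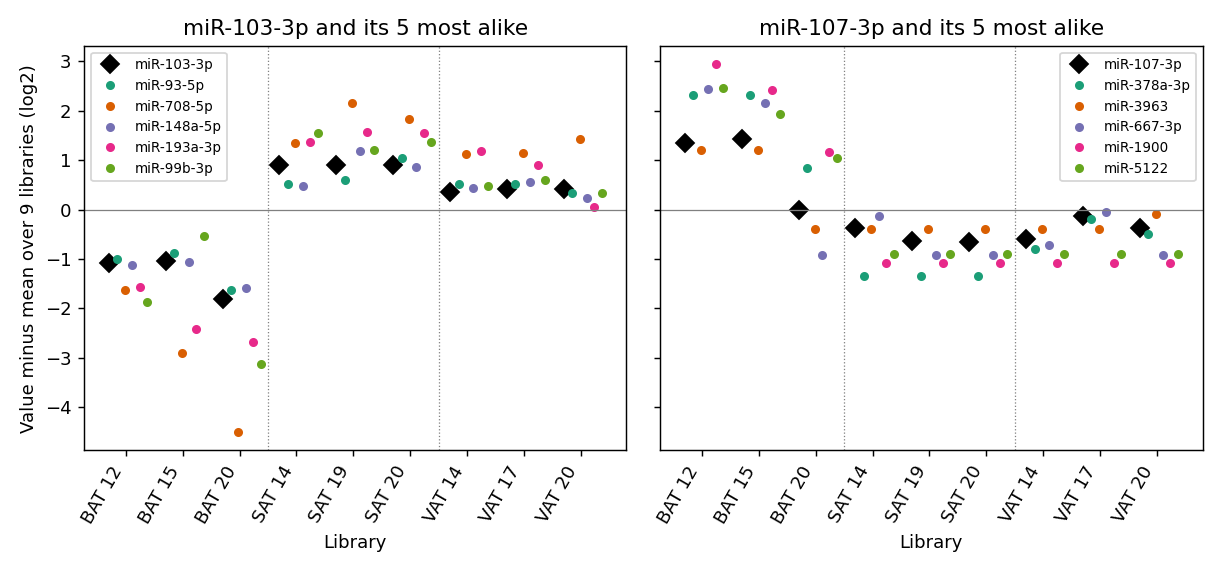
Log2 value minus the mean over the 9 libraries for miR-103-3p (left) and miR-107-3p (right), as black diamonds, with the 5 tested miRNAs of highest Pearson's r to each as coloured points. Dotted lines part the depots, and the diamonds of BAT lie below those of white fat on the left and above them on the right. In BAT 20, miR-3963 and miR-667-3p do not lie above all white fat libraries.

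The 5p strands are shown with bases 2 to 8 in capitals, for comparison with the guides.
miR-103-1-5p: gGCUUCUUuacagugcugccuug
miR-103-2-5p: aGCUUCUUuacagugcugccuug
miR-107-5p: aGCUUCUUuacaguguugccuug
miR-103-2-5p differs from miR-103-1-5p by G1A, and miR-107-5p differs from miR-103-2-5p by C16U, counted from the 5′ end of the strand named last. These single differences could have told the 3 loci apart, but all 3 rows were at the lowest value in every library. No difference in the use of Mir103-1 and Mir103-2 was therefore detectable. Neither the depth of each library nor the read count behind the lowest value is known, so no limit was set on the level of these strands.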

How the data were processed

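The series holds 9 small RNA libraries, 3 for each fat depot of mice on the high fat diet. The authors mapped reads to miRBase precursors (build mm10 per the labels), counted those on a mature strand and split a read with more than 1 place in proportion. They scaled by the usable reads of a library and, per the paper, added 40 counts. The values the authors deposited are log2 values, which the paper calls RPKM. Their lowest value is 10 before log2.

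The values were used as deposited. A miRNA was tested if 3 or more libraries lay above the table's lowest value, which held for 343 of 1251. Two-sided moderated tests were made in R 4.3.3 by limma 3.58.1 on the 6 libraries of each pairwise comparison, or on all 9 for WAT/BAT and the F test, and p values were adjusted over all 343 by Benjamini-Hochberg. The paper's test per miRNA without moderation was run as an alternative. Differences and sums of the members were tested by exact permutation (numpy 2.4.6, Python 3.11.15). The limma test of the pairwise comparisons was checked on simulated data.

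The members, the lists and the tests were chosen with earlier results of these data known. Named miRNAs were the members, the listed extended seed family and insulin list, the 5 miRNAs most alike to each member by Pearson's r, cell type markers and miR-191-5p. The sum of the members, the pairs with a common seed and the alternatives for the sum were added after the values were seen.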

Additional observations from a re-analysis of the deposited data

How the results depend on the processing

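miR-103-3p stayed above BAT at an adjusted p under 0.05 in all 17 alternatives of VAT/BAT, 17 of SAT/BAT and 18 of WAT/BAT. Its VAT/SAT change kept its sign in 18 alternatives but missed the threshold in 8: -0.51 after quantile normalization, with all 9 libraries in a fit, with the replicate block by the number in the title (all 9 libraries) and with the replicate block by library order, and -0.33 relative to miR-191-5p (which shifts SAT/BAT by -0.17 and VAT/SAT by 0.17). Libraries left out gave -0.52 to -0.49, and without SAT 19, SAT 20 or VAT 20 the adjusted p was over 0.05. miR-107-3p kept its sign throughout. In VAT/BAT it missed the threshold in 9 of 17 alternatives: -1.29 after subtracting the lowest value and adding 1, -1.28 without a filter, with the replicate block by library order and without moderation, and 5 of the 6 fits with a library left out (-1.75 to -1.03 over the 6). Its adjusted p ranged from 0.00189 to 0.31 over all of them. In SAT/BAT it passed in 7 of 17: -1.47 with the more abundant 50% of miRNAs, a common median, quantile normalization or all 9 libraries, -1.45 with the replicate block by the number in the title, -1.64 relative to miR-191-5p, and without BAT 20 (libraries left out gave -1.94 to -1.22). In WAT/BAT it missed the threshold without a filter (-1.38, adjusted p = 0.0567). The difference and the sum of the members kept their sign in all 60 alternatives, many of which could not have changed it. The depots did not overlap in either quantity, so leaving out a library could not reverse a sign. A shift of a whole library cancels in the difference. Leaving out a library likewise could not reverse the sign of a single member where its depots did not overlap.

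The number of miRNAs that passed moved with the settings. VAT/BAT gave 227, but 128 without a filter and 120 with the more abundant 50% of miRNAs, which tests fewer miRNAs. SAT/BAT gave 139, but 74 without a filter. VAT/SAT gave 55, but 4 without a filter, 2 relative to miR-191-5p (both higher in VAT, against 29 of 55), 30 with all 9 libraries with or without the replicate block by title number, 13 without moderation, 0 with the replicate block by library order (105 at an unadjusted p under 0.05), and 0 to 49 with a library left out (0 without SAT 19, 104 unadjusted). The cause was not tested. Same-numbered libraries correlated at -0.14 to 0.27 after depot means were removed (4 pairs) and libraries of the same order at -0.17 to 0.36 (9 pairs). Neither the labels nor the paper say whether libraries with the same number came from the same mouse, and so few pairs cannot show it. The main fits and the permutation tests used no pairing and treated the libraries as independent. Of 2348 fits of other named miRNAs, 187 lost the threshold and 33 gained it.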

Other observations

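Over the 9 libraries the SD of miR-103-3p was 1.03 on the log2 scale, which ranked 161 of 343 tested miRNAs from the smallest, with a range of 2.72. For miR-107-3p the SD was 0.81 (rank 111) and the range 2.08. miR-191-5p, to which the paper normalized its qPCR, had an SD of 0.28 (rank 11) and a range of 0.82. These ranks are a description of 9 libraries from 3 depots and were not tested.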
